A study of Bos taurus with 96 samples.

Results

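The genes described are 8 members of the adrenergic and natriuretic control of fat: the receptors ADRB1, ADRB3, ADRA2A, NPR1 and NPR3, the phosphodiesterase PDE3B, the adenosine receptor ADORA1 and the receptor partner RAMP3. They were chosen by name and role, with earlier results of these data known. Of them 7 are among the 10653 genes named in the table the authors analysed, and NPR3 is on the array outside it. A probe was taken as a member through its bovine RefSeq accession or through the probe tables of the study, which gave 13 probes. Of these, 9 are among the 34227 probes of that table, and the 4 others (both of NPR3, A_73_P108231 and A_73_P164897 of ADORA1) were tested among all 43653 probes that are not controls. PDE3B has its name from the study's table alone.

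Catecholamines and natriuretic peptides are the main hormonal switches for the release of fatty acids from fat cells. Beta-adrenergic receptors raise cyclic AMP through a stimulatory G protein, alpha-2 receptors and the adenosine A1 receptor lower it through an inhibitory one, and the natriuretic receptor NPR1 makes cyclic GMP instead. Both messengers activate kinases that switch on lipases at the surface of the lipid droplet, and PDE3B, which insulin activates, breaks cyclic AMP down again.

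Total RNA of 96 bovine samples was hybridised to single-colour Agilent arrays, 1 sample an array. Steers of 26 months and of 3 breeds (Angus, Hereford, Wagyu x Angus), after 259 days in a feedlot, were slaughtered and the tissues dissected. Subcutaneous fat over the rump (SC), intermuscular fat (Inter), kidney fat (Kid), omental fat (Omen) and intramuscular fat dissected from the longissimus muscle (IMF) each gave 12 arrays, 4 a breed, all from steers kept on pasture after weaning. The longissimus muscle itself, with its fat in place (LD), gave 36 arrays, 8 pasture and 4 supplement a breed, where supplement means extra feed after weaning. The depots of one steer share an animal, and the labels do not say which arrays those are, so p-values measure the spread between arrays. Some LD samples came from an earlier slaughter, which the labels do not mark, so the age and feedlot time given here may not hold for those. The labels give 259 days as the age.

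Values are log2 processed signal minus the 75th percentile of the array, so 0 is that percentile, and levels of different probes are not comparable. The groups were compared with limma, and a probe was called at a Benjamini-Hochberg adjusted p under 0.05 over all probes tested. On the arrays, between 66.2% and 96% of probes lay well above background, and the median 75th percentile was 9.05 in SC, 9.14 in LD and 9.82 to 10.2 in the other depots (log2). Scanning took 3 days, with 11 of 12 SC arrays on the first, all Inter arrays on the second, and all IMF and 10 Omen arrays on the third, so that for most depots day and depot can hardly be told apart. The Kid arrays (5, 6 and 1) and the pasture LD arrays (8 each) were spread over the days. All 8 adipocyte markers were above background on every fat array. The summed skeletal muscle markers were 9.8 to 11.42 in IMF, 11.72 to 12.53 in LD and 0.51 to 1.35 in SC (log2 of the summed signal), and 1 Inter array of Wagyu x Angus stood at 9.49, against at most 6.11 in the others. A Kid array of Hereford correlated least with its depot (median r = 0.948, others at least 0.967), and its macrophage markers summed to 7.43, against 3.45 to 6.24 in the other Kid arrays. In these bulk samples fewer cells of a type and less RNA per cell cannot be told apart.

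Of the members, ADRB3 and RAMP3 differed most from SC. Over the 5 fat depots 7 of the 9 probes were called, against 87.2% of all probes tested, a share that does not stand above the background. Among the fat depots ADRB3 was lowest in SC and highest in Kid, RAMP3 was highest in IMF, and PDE3B and ADORA1 were lowest in IMF. ADRB1 and ADRA2A were highest in SC on the scaled values, where IMF was not called against it. In the authors' table without scaling both were lowest in SC.

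ADRB3, the beta-adrenergic receptor typical of fat cells, was near the bottom of its range in SC. Its level there was -4.15 ± 0.47 (SD, n = 12; lowest -4.97, median -4.09, highest -3.09). In Kid it was 1.25 ± 0.67 (SD, n = 12; lowest 0.17, median 1.35, highest 2.16). Every Kid array therefore lay above every SC array. The difference in level, Kid minus SC, was 5.40 ± 0.23 (SE), or 42.2-fold (limma, adjusted p = 7.64e-14), the smallest p-value among the 34227 probes, while the share of probes without overlap in that comparison was 3.52%. Within the first scan day the difference was 5.34 (5 Kid against 11 SC arrays), and within Angus, Hereford and Wagyu x Angus it was 5.45, 4.78 and 5.96. Of the 4 kidney and adrenal markers tested 0 were called higher in Kid than in SC and 2 were called lower by limma, and STAR had mean levels of -1.08 in Kid and -1.57 in SC.

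In Omen the ADRB3 level was -0.18 ± 1.44 (SD, n = 12; lowest -2.67, median 0.28, highest 1.42). This was 15.6-fold above SC, again without overlap (log2 difference 3.96 ± 0.42 SE, adjusted p = 8.06e-08; 3.97% of all probes had no overlap). The 2 Omen arrays scanned on the second day, both Angus, averaged -2.11 against 0.20 for the 10 on the third day. Inter was as wide, from -3.61 to 0.90 (median -0.74, mean -1.13 ± 1.42 SD, n = 12), and its range touched that of SC while its mean was 8.08-fold higher (adjusted p = 2.78e-06). With normexp background correction the ADRB3 differences from SC were smaller, 3.77 in Kid, 2.48 in Omen and 1.59 in Inter, and all 3 were called.

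IMF stood between SC and the internal depots, with an ADRB3 level of -2.64 ± 0.96 (SD, n = 12; lowest -4.41, median -2.58, highest -1.02). It was 2.85-fold above SC (log2 difference 1.51 ± 0.30 SE, adjusted p = 9.56e-05), and 11 of 12 IMF arrays lay above the SC median. With scan day as a block, in which a single SC array stands beside the IMF arrays on the third day, that difference was 1.80 (adjusted p = 0.101), and with normexp background correction it was 0.47 (adjusted p = 0.032). Within Wagyu x Angus it was 1.68 and not called (adjusted p = 0.0669). LD, at -4.09 ± 0.47 (SD, n = 36; lowest -4.87, median -4.19, highest -3.26), did not differ detectably from SC (SC minus LD -0.06 ± 0.15 SE, adjusted p = 0.742). In the order Kid, Omen, Inter, IMF, LD, SC the neighbours Omen and Inter (adjusted p = 0.263) and LD and SC were not called, whereas Kid exceeded Omen (adjusted p = 0.0326), Inter exceeded IMF (adjusted p = 0.00772) and IMF exceeded LD (adjusted p = 1.14e-08).

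**Figure D1:**
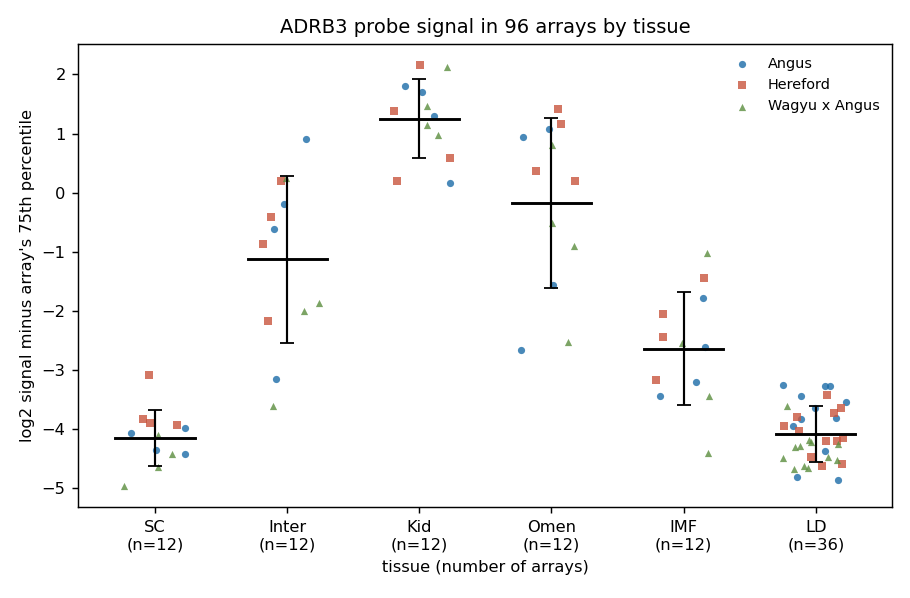
ADRB3 probe level (vertical axis, log2 signal minus the 75th percentile of the array) in each of 96 arrays by tissue; points are arrays, shapes and colours breeds, bars the mean and SD of all arrays of the tissue. All 12 Kid arrays lie between 0.17 and 2.16, above every SC array (-4.97 to -3.09), while Inter and Omen arrays are spread over most of the space between.

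ADRB1, the beta receptor shared with the heart, and ADRA2A, the alpha-2 receptor that restrains lipolysis, ran the other way from ADRB3 in the internal depots. ADRB1 was -2.54 ± 0.28 in SC (SD, n = 12; lowest -2.94, median -2.46, highest -2.15), and the means of Inter, Kid and Omen were -3.16, -3.08 and -3.03. The ADRB1 difference from SC was -0.61 ± 0.11, -0.54 ± 0.10 and -0.48 ± 0.11 (SE; adjusted p = 7.76e-05, 0.000107 and 0.00102). In each of these depots 0 of 12 arrays lay above the SC median, although the ranges overlapped.

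ADRA2A was -1.37 ± 0.16 in SC (SD, n = 12; lowest -1.65, median -1.33, highest -1.11) and -2.16 ± 0.37 in Inter (SD, n = 12; lowest -2.63, median -2.28, highest -1.35). Relative to SC, Inter differed by -0.79 ± 0.11, Kid by -0.39 ± 0.09 and Omen by -0.60 ± 0.09 (SE; adjusted p = 5.68e-06, 0.00103 and 8.75e-06), again with 0 of 12 arrays above the SC median in each. The receptor was thus lowest in Inter, and Kid exceeded Inter (adjusted p = 0.0343). In IMF neither receptor was called against SC (ADRB1 -0.14 ± 0.13, adjusted p = 0.325; ADRA2A -0.25 ± 0.12, adjusted p = 0.0608), although within Wagyu x Angus ADRB1 was called lower (-0.63, adjusted p = 0.0253), against 0.07 in Angus and 0.13 in Hereford. Both were highest in LD, at -2.09 ± 0.46 for ADRB1 and -0.89 ± 0.37 for ADRA2A (SD, n = 36).

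These small decreases rest on the arrays being scaled, and with quantile normalization none of them was weaker or reversed. In the authors' table without scaling the median probe was 0.98, 0.83 and 0.82 higher in Inter, Kid and Omen than in SC, and there ADRB1 was higher by 0.41, 0.30 and 0.43 and ADRA2A by 0.23, 0.52 and 0.32, so both rose less than the median probe. With scan day as a block over all 96 arrays the ADRB1 differences were -0.10, -0.26 and -0.04 and none was called, and of the ADRA2A differences the Inter value of -0.49 was called (adjusted p = 0.00575). When scan day was fitted as a block within the Kid and SC arrays only, both Kid differences were called, ADRB1 at -0.50 (adjusted p = 0.00383) and ADRA2A at -0.26 (adjusted p = 0.0319). The same fit within the Omen and SC arrays gave ADRB1 at -0.30 and ADRA2A at -0.26, neither called. There the third day alone holds both depots, with 1 SC array beside 10 Omen arrays, so that fit can hardly decide.

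**Figure D2:**
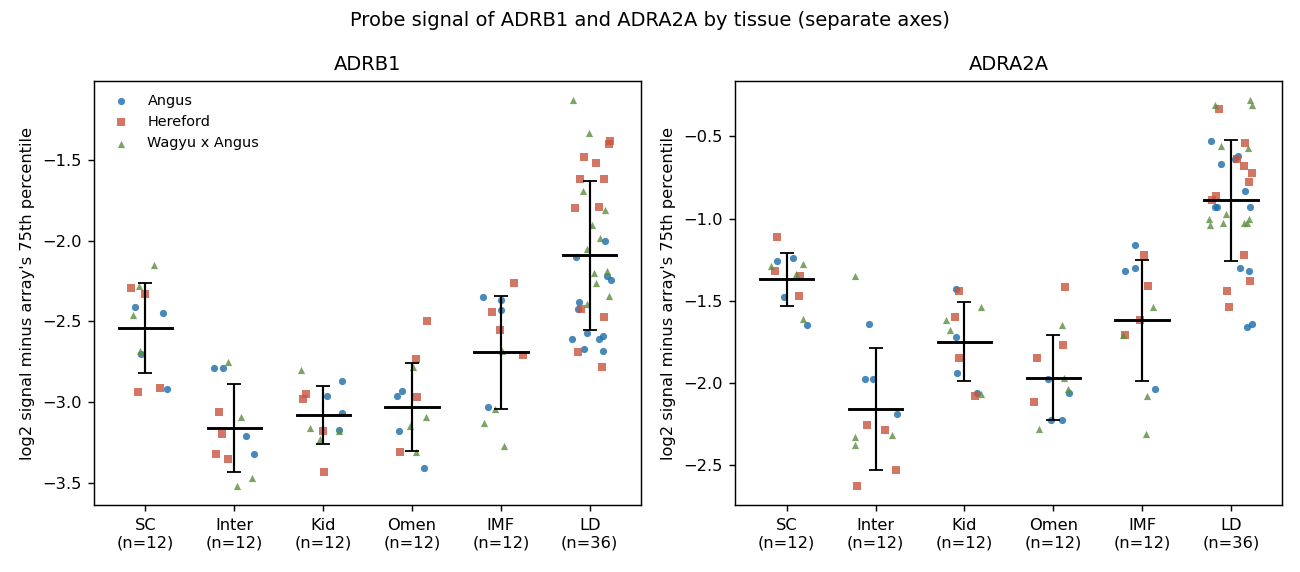
ADRB1 and ADRA2A probe levels (vertical axes, log2 signal minus the 75th percentile of the array, a separate axis a gene) by tissue; points are arrays, shapes and colours breeds, bars mean and SD. Both genes are lower in Inter, Kid and Omen than in SC, by 0.39 to 0.79, and highest in LD.

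Per comparison with SC, 4 of 9 member probes were called in each of Inter, Kid and Omen, 2 higher (ADRB3, RAMP3) and 2 lower (ADRB1, ADRA2A), where 48.8%, 41.7% and 45.7% of all probes were called (21.6%, 19.4% and 20.5% higher, 27.2%, 22.2% and 25.2% lower). In IMF 5 of 9 were called, 2 higher (ADRB3, RAMP3) and 3 lower (PDE3B and 1 probe each of ADORA1 and NPR1), where 64.2% of all probes were called (31.2% higher, 33% lower). The share of members called was thus near that of the array in each depot. These 4 comparisons share the SC arrays. Between the other fat depots, IMF differed from Inter, Kid and Omen in 7, 6 and 7 of 9 member probes (62.7%, 55.8% and 56.2% of all probes), Kid from Inter in 2 (15.4%), Omen from Kid in 1 (12.1%) and Omen from Inter in 0 by limma (13.6%; 1 member probe at an unadjusted p under 0.05). SC, Inter, Kid, Omen and IMF differed from LD in 6, 7, 6, 6 and 7 of 9, where 82.9%, 83.8%, 80.2%, 82.1% and 75.3% of all probes were called. The fewest members, and the fewest probes of the array, were thus called among Inter, Kid and Omen.

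**Figure D3:**
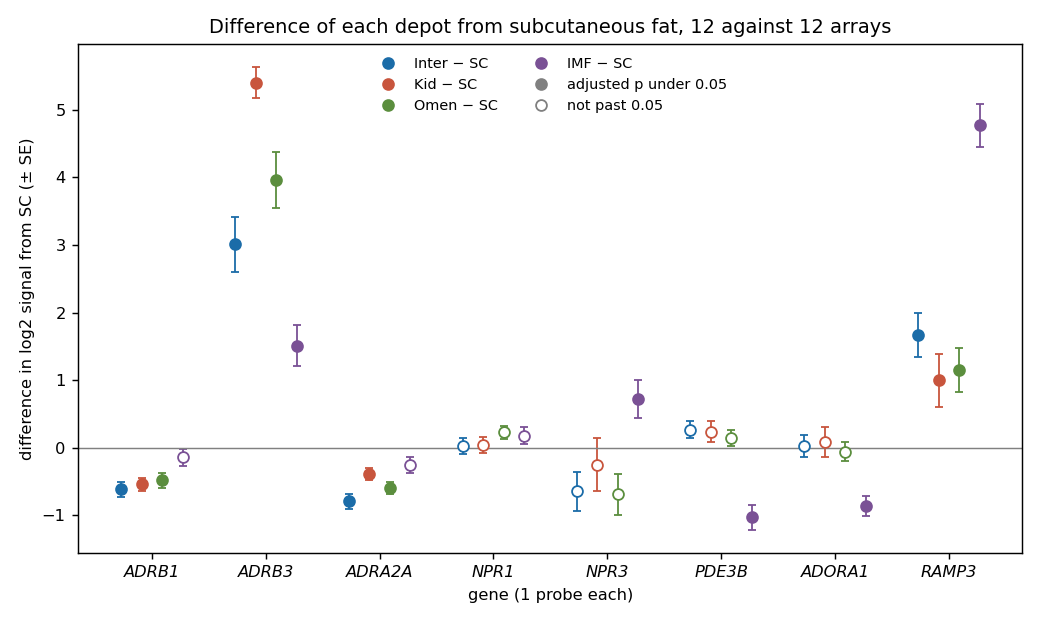
Difference in level from SC (vertical axis, log2, ± SE; 12 against 12 arrays) for 1 probe of each member gene in Inter, Kid, Omen and IMF; filled points have an adjusted p under 0.05 and open points do not. ADRB3 reaches 5.40 in Kid and RAMP3 4.77 in IMF, and the other members lie between -1.03 and 0.72.

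NPR1, the receptor of atrial natriuretic peptide, was read by a pair of probes that did not follow each other (r = -0.03 over 96 arrays). Its first probe (A_73_103308) lay between a mean of -1.60 in SC and -1.37 in Omen and was not called over the depots (adjusted p = 0.312). The second (A_73_P092366) was -2.95 ± 0.32 in SC and -3.93 ± 0.55 in IMF (SD, n = 12; lowest -4.83, median -3.97, highest -3.06 in IMF). That is a difference of -0.98 ± 0.18 (SE, adjusted p = 3.23e-05), which was called with scan day as a block (-1.46, adjusted p = 0.0227) and not within Wagyu x Angus (-0.58, adjusted p = 0.116), and in LD, where 32 of 36 arrays were above background, the level was lower still at -5.07 ± 0.68 (SD). Within Hereford the probes were called in opposite directions, the first at 0.52 (adjusted p = 0.0198) and the second at -1.11 (adjusted p = 0.00516). No single direction for NPR1 in IMF therefore follows from the array.

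NPR3, the clearance receptor that removes natriuretic peptides, was dim throughout, and 1 of its probes (A_73_116337) was above background on at most 4 of 12 arrays of a fat depot. The other (A_73_P042521) was highest in IMF, at -4.22 ± 0.46 (SD, n = 12; lowest -4.88, median -4.20, highest -3.51), against -4.94 ± 0.92 in SC, with 10 of the 12 SC arrays above background. The NPR3 difference from SC was 0.72 ± 0.28 (SE, adjusted p = 0.0325 among all 43653 probes, of which 60% were called). IMF also exceeded Inter by 1.36, Kid by 0.97 and Omen by 1.41 (adjusted p = 3e-06, 0.0166 and 1.4e-05), with 12 of 12 IMF arrays above each of those medians, but not LD (IMF minus LD 0.40 ± 0.34 SE, adjusted p = 0.286).

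PDE3B, which breaks down cyclic AMP in fat cells, was close to the 75th percentile in all the fat depots outside muscle. Its mean level was 0.53 ± 0.26 in SC (SD, n = 12; lowest 0.17, median 0.58, highest 1.02), 0.80 ± 0.34 in Inter, 0.77 ± 0.47 in Kid and 0.68 ± 0.33 in Omen, and none of these 3 depots was called against SC. Without the Kid array that stood apart, which had a PDE3B level of -0.41, Kid was called above SC (difference 0.35, adjusted p = 0.018). In IMF the level was -0.49 ± 0.61 (SD, n = 12; lowest -1.60, median -0.45, highest 0.61), 2.04-fold below SC (difference -1.03 ± 0.18 SE, adjusted p = 3.11e-05), and 1 of 12 IMF arrays lay above the SC median. That call was lost with scan day as a block (-0.69, adjusted p = 0.328) and within Wagyu x Angus (-0.74, adjusted p = 0.114). LD was at -5.38 ± 1.12 (SD, n = 36), and every IMF array lay above every LD array (limma, adjusted p = 2.32e-18; 15.5% of all probes had no overlap). The probe was above background on 14 of 36 LD arrays, so no fold is given.

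ADORA1, the adenosine A1 receptor, which restrains lipolysis, followed PDE3B over the depots on its first probe (A_73_110656): the correlation of the 15 means of depot and breed was 0.92 over fat alone, where the points share depots and arrays. The ADORA1 level was -1.04 ± 0.34 in SC (SD, n = 12; lowest -1.56, median -1.05, highest -0.49) and -1.90 ± 0.43 in IMF (SD, n = 12; lowest -2.78, median -1.86, highest -1.30). The difference was -0.86 ± 0.15 (SE, adjusted p = 3.38e-05), with 0 of 12 IMF arrays above the SC median. That call was lost with scan day as a block (-0.75, adjusted p = 0.199) and within Wagyu x Angus (-0.49, adjusted p = 0.22). The Inter, Kid and Omen differences from SC, 0.03, 0.09 and -0.06, were not called. A_73_P108231 moved with the first probe (r = 0.90 over 96 arrays) and was lower in IMF by 1.58 on the log2 scale. A_73_P164897, above background on 4 of 12 IMF and 5 of 12 SC arrays, also followed the first probe (r = 0.77), but its difference in IMF, -0.36 ± 0.24 (SE), was not called (adjusted p = 0.206). A further probe (A_73_P226312) was uncorrelated with it (r = -0.04) and differed by 0.00 ± 0.16 between IMF and SC (SE, adjusted p = 0.982), with -0.19 in Angus, 0.47 in Hereford (called, adjusted p = 0.036) and -0.27 in Wagyu x Angus.

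Beside these decreases in IMF, 7 of 8 adipocyte markers were called lower in IMF than in SC and none higher (median difference -1.19). The summed adipocyte markers ranged from 7.34 to 9.29 in IMF and from 9.28 to 9.90 in SC, and all 10 skeletal muscle markers on the table were higher in IMF. The 6 macrophage markers were all lower (median -2.07), as were 5 of 8 endothelial markers with 0 higher (median -0.61). Their part, and that of the smooth muscle markers, in the IMF values of the members and of the other pathway genes was not tested.

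RAMP3, a membrane protein that joins receptors of the calcitonin family and turns them towards adrenomedullin, was the member that set IMF apart. Its level was 0.70 ± 0.61 in IMF (SD, n = 12; lowest -0.39, median 0.84, highest 1.54). In SC it was -4.07 ± 0.98 (SD, n = 12; lowest -5.48, median -4.15, highest -1.38). Every IMF array lay above every array of each other tissue, LD included. The difference from SC was 4.77 ± 0.32 (SE), or 27.3-fold (adjusted p = 5.03e-12), in a comparison where 14.9% of all probes had no overlap. Against Inter, Kid and Omen RAMP3 in IMF was 8.58-, 13.7- and 12.3-fold higher (adjusted p = 7.43e-10, 1.53e-09 and 6.72e-12; 8.48%, 8.53% and 8.44% of all probes had no overlap).

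LD, which contains the same muscle and its fat in place, had a RAMP3 level of -3.17 ± 0.64 (SD, n = 36; lowest -4.76, median -3.12, highest -1.96). IMF exceeded it by 3.88 ± 0.21 (SE), or 14.7-fold (adjusted p = 9.1e-22). Within Angus, Hereford and Wagyu x Angus the RAMP3 difference of IMF from SC was 4.93, 4.95 and 4.43. All 7 smooth muscle markers were higher in IMF than in SC (median 3.33, sums 8.07 to 10.23 against 4.04 to 8.62). Of the 7, the mean levels of 5 were higher in IMF than in LD, with ACTA2 at 6.92 against 4.02, CNN1 at 5.69 against 2.02, MYH11 at 5.68 against 2.28, TAGLN at 4.21 against 1.59 and LMOD1 at 3.49 against 2.95. DES, which skeletal muscle also makes, and SYNPO2 were at 7.80 and -1.63 in IMF against 8.83 and -0.43 in LD. The summed markers of LD, 8.45 to 9.30, had a median of 8.92, close to the mean of DES alone, against 8.89 in IMF. Among the Schwann cell and nerve markers 4 of 7 were higher and 1 lower, with sums of 3.72 to 7.15 in IMF and 5.12 to 6.14 in SC. Their part in the RAMP3 level was not tested.

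The SC array of Hereford with the highest RAMP3 level, -1.38 against -5.48 to -3.59 in the other SC arrays, also had the highest smooth muscle sum, 8.62 against 4.04 to 4.83. Without it the RAMP3 difference from SC was 5.02 in IMF, 1.92 in Inter, 1.40 in Omen and 1.24 in Kid. With it the values were 4.77 (27.3-fold), 1.67 (3.18-fold, adjusted p = 0.000172), 1.15 (2.22-fold, adjusted p = 0.00497) and, in Kid, 2-fold (adjusted p = 0.044). The Kid call was lost with normexp background correction (difference 0.14, adjusted p = 0.626), with breed as a covariate (again 2-fold, adjusted p = 0.053) and with scan day as a block (1.05, adjusted p = 0.109), and it was kept with scan day over all 96 arrays (0.94, adjusted p = 0.0158). It was also lost with the equal-variance test of the methods (adjusted p = 0.0569), in the authors' table scaled to the 75th percentile (0.82, adjusted p = 0.0998) and within Angus, Hereford and Wagyu x Angus (adjusted p = 0.0898, 0.81 and 0.051). The Omen call was lost with normexp (0.21, adjusted p = 0.352) and kept with scan day over all 96 arrays (adjusted p = 0.0298). With scan day as a block, where 1 SC array stands beside 10 Omen arrays, the Omen difference was 1.27 and not called. It was called within Angus (adjusted p = 0.033) and not within Hereford or Wagyu x Angus (adjusted p = 0.453 and 0.0584). The Inter call was lost within Hereford (1.61, adjusted p = 0.216) and kept within the other breeds. In IMF normexp gave 3.35. In the order IMF, Inter, Omen, Kid, LD, SC the first step and the last (SC minus LD -0.90 ± 0.24 SE, adjusted p = 0.000666) were called, and Inter to Omen (adjusted p = 0.173), Omen to Kid (0.808) and Kid to LD (0.706) were not.

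**Figure D4:**
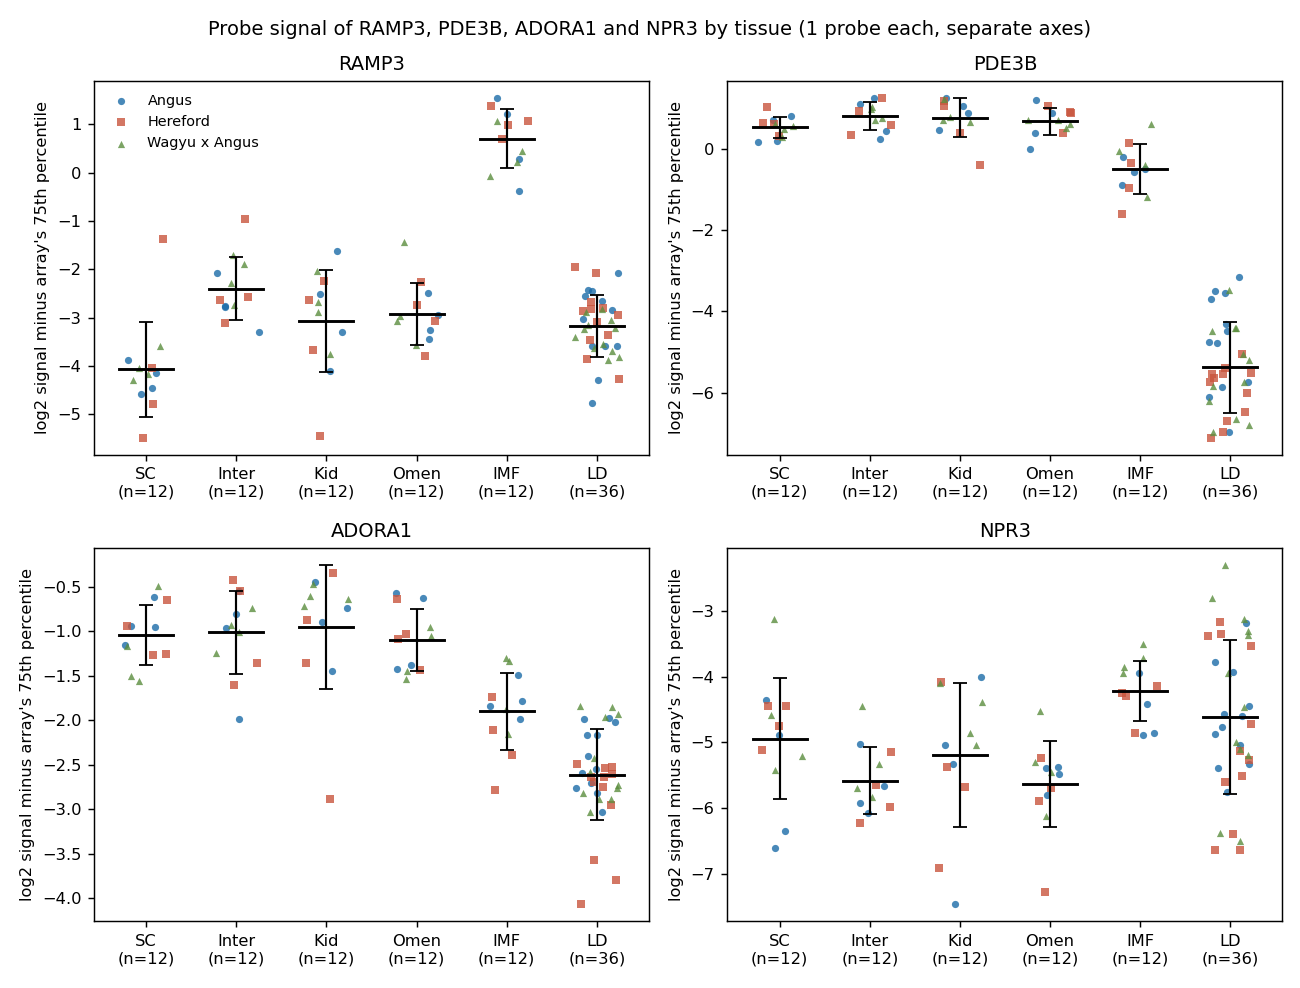
RAMP3, PDE3B, ADORA1 and NPR3 probe levels (vertical axes, log2 signal minus the 75th percentile of the array, a separate axis a gene) by tissue; points are arrays, shapes and colours breeds, bars mean and SD. In IMF, RAMP3 lies between -0.39 and 1.54, above all other tissues, while PDE3B (mean -0.49) and ADORA1 (mean -1.90) fall below the other fat depots and above LD.

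Of all named genes the pattern most like RAMP3 over the 15 means of depot and breed was that of MAPT, ADCY2 and SCHIP1 (r = 0.98 each). The nearest to ADRB3 were PLK3, MAK16 and GPAT3 (r = 0.967, 0.961 and 0.957). Those nearest to PDE3B were FGFRL1, C8orf42 and PGM3 (r = 0.971, 0.967 and 0.964). Among the members themselves ADRB1 and ADRA2A had r = 0.88, and PDE3B and RAMP3 had r = -0.83. These correlations describe means that share arrays, 1 value a depot and breed.

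Beside the IMF values of the other pathway genes, 7 of 8 adipocyte and 6 of 6 macrophage markers were lower in IMF than in SC, and 10 of 10 skeletal muscle and 7 of 7 smooth muscle markers were higher. Among G proteins and adenylyl cyclases, which turn receptor signals into cyclic AMP, 1 of 11 was higher and 8 lower in IMF than in SC (median -0.67, against -0.07 over all genes, of which 69.1% were called). The adenylyl cyclase ADCY2 was the exception, 71.7-fold higher in IMF and 4.06-fold higher in Inter on 1 of its 4 probes in the table. Its SC level of -5.22 lay near the lowest values above background on SC arrays, so these folds are uncertain. ADCY5 was lower than in SC without overlap in Inter, Kid, Omen and IMF, by 1.44, 2.04, 1.16 and 1.89 (log2; 3.75% of all probes had no overlap in Inter). GNAI2, an inhibitory G protein subunit, was 2.26-fold lower in IMF, GNB1, a beta subunit, 2-fold lower, and ARRB2, an arrestin that desensitises receptors, 2.15-fold lower. Of 5 genes of receptor desensitisation 1 was higher and 3 were lower in IMF, and of 5 other receptors that restrain lipolysis 1 was higher and 2 were lower. Of 4 other genes of the RAMP family, its receptors and ligands, 2 were higher and 1 lower in IMF, and 2 higher and 1 lower in Inter, where 52.2% of all genes were called. Named after their values were seen, those in IMF were RAMP1, a partner in the receptor of calcitonin gene-related peptide, at 6.64-fold higher (adjusted p = 2.06e-07), CALCRL, the receptor both partners join, at 1.2-fold higher (adjusted p = 0.0409), and ADM, the precursor of adrenomedullin, at 2.46-fold lower (adjusted p = 1.71e-05).

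Of 11 other cyclic nucleotide phosphodiesterases, 5 were higher and 3 lower in IMF (median 0.39), where 69.1% of all genes were called. PDE4B was higher than in SC in all 4 depots without overlap, by 1.23 in Inter, 0.93 in Kid, 1.15 in Omen and 2.15 in IMF. PDE4D was higher by 1.40 in Kid, 1.72 in Omen and 2.76 in IMF. Both break down cyclic AMP, as PDE3B does, and in IMF they were higher where PDE3B was lower. PDE2A, which cyclic GMP stimulates, was lower by 1.35 on the log2 scale in IMF.

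PRKG1, the kinase that cyclic GMP activates, was higher by 1.47 in Omen and 1.73 in IMF, and of 5 tested genes of the natriuretic peptides, receptors and kinases 2 were higher and 2 lower in IMF (median 0.06), where 69.1% of all genes were called. The second one higher, named after its value was seen, was NPPC, the precursor of C-type natriuretic peptide, at 3.75-fold (adjusted p = 1.68e-05). All 5 lipolytic effectors, the lipases and lipid droplet proteins at the end of the pathway, were lower in IMF (median -1.33), where 38.9% of all genes were called lower. The adipocyte markers, which share LIPE and PLIN1 with this list, had a median of -1.19 there, and their part was not tested. Among the effectors was PNPLA2, the first lipase of triglyceride breakdown, which was lower by 1.23 on the log2 scale. In Kid 1 of these 5 was higher and 0 lower, where 44.5% of all genes were called.

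NT5E, which makes adenosine, was lower by 1.78 in Kid and 1.36 in IMF on the log2 scale, and ENTPD1, which acts before it, was higher by 1.11 in Kid. MAOA, which degrades catecholamines, was lower by 0.71 in Inter, 0.80 in Omen and 1.24 in IMF. PRKAR2B, a regulatory subunit of the kinase that cyclic AMP activates, was higher by 1.06 in Inter. Of 6 genes for adenosine 2 were higher and 4 lower in IMF, and of 6 subunits of the cyclic AMP kinase 1 was higher and 3 lower, where 30.2% of all genes were called higher and 38.9% lower.

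Diet was compared in LD alone, 12 supplement against 24 pasture arrays with breed in the fit. The methods place both diets at the earlier slaughter and pasture alone at the later one, and since the labels do not mark the slaughter, its part in the diet differences cannot be told apart. Of the 9 member probes 2 were called, both lower with supplement, where 11.2% of all probes were called and 5.6% were lower. The levels of ADRB1, ADRB3, ADRA2A, NPR1 and RAMP3 were not called, with differences between -0.09 and 0.41. The NPR3 probes, tested among all 43653 probes, were not called either. A_73_116337 (adjusted p = 0.305) was above background on 2 of 36 LD arrays, so no size is given, and A_73_P042521 differed by 0.77 (adjusted p = 0.223). PDE3B was called lower with supplement (adjusted p = 0.0422), but the probe was above background on 3 of 12 supplement and 11 of 24 pasture arrays, so no size is given, and the call held in 18 of 36 fits that each left out 1 array. Within a scan day shared by both diets the mean PDE3B signal was lower with supplement in Angus and in Hereford and higher in Wagyu x Angus. No Hereford LD array and 1 of 4 Wagyu x Angus supplement arrays were above background, so the direction in these breeds says little. With normexp background correction PDE3B was not called (adjusted p = 0.807). The summed adipocyte markers of LD had a median of 4 on pasture and 2.36 with supplement. By breed the medians were 5.33 and 2.33 in Angus, 3.79 and 2.14 in Wagyu x Angus, and 2.05 and 2.37 in Hereford. Their part was not tested.

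ADORA1 on probe A_73_P226312 was lower with supplement by 0.51 ± 0.12 on the log2 scale (SE, adjusted p = 0.00466), and this difference depended on breed (breed by diet, adjusted p = 7.19e-05). With supplement the Hereford level was -2.59 ± 0.14 and that of Wagyu x Angus -2.41 ± 0.18 (SD, n = 4), against -1.74 ± 0.29 and -1.48 ± 0.12 on pasture (SD, n = 8). In Angus it was the other way, -1.77 ± 0.19 with supplement and -2.03 ± 0.18 on pasture. The supplement arrays of Hereford (-2.75 to -2.44) and of Wagyu x Angus (-2.65 to -2.24) all lay below the pasture arrays of their breed, where 6.4% and 4.75% of all probes had no overlap. Within Angus alone the difference was 0.26 and not called (adjusted p = 0.219). The first ADORA1 probe was not called for diet (adjusted p = 0.489), although within Angus it was lower with supplement by 0.60 on the log2 scale (adjusted p = 0.0348). Within Hereford its difference was 0.43, opposite to that of A_73_P226312, and not called (adjusted p = 0.362). With slide as a random block A_73_P226312 was not called for diet either (adjusted p = 0.343).

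NPR1 on its first probe was not called for diet as a whole, and its diet difference depended on breed (adjusted p = 0.000396). In Hereford it was -2.48 ± 0.07 with supplement (SD, n = 4) and -1.72 ± 0.20 on pasture (SD, n = 8), without overlap, as for 6.4% of all probes. In Angus it was -0.96 ± 0.15 with supplement and -1.50 ± 0.35 on pasture. In Wagyu x Angus it was -1.57 ± 0.32 and -1.53 ± 0.13. The second NPR1 probe (A_73_P092366) went the other way in Hereford, with a diet difference of 0.87. Its difference was 0.08 in Angus and 0.28 in Wagyu x Angus, and none was called by limma within a breed (adjusted p = 0.16, 0.897 and 0.607). The breed by diet term called 2 of 9 member probes and 16.2% of all probes. That share is 5539 probes. It became 5686 with quantile normalization, 1144 with normexp, 850 in the authors' table as deposited and 4753 in that table scaled to the 75th percentile. The supplement arrays of each breed lie on 1 slide, so slide and group cannot be told apart. The 2 called probes, A_73_103308 of NPR1 and A_73_P226312 of ADORA1, followed each other over the 96 arrays (r = 0.64). Within a scan day shared by both diets the NPR1 difference on A_73_103308 was -0.84 in Hereford, 0.22 in Angus and 0.04 in Wagyu x Angus.

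**Figure D5:**
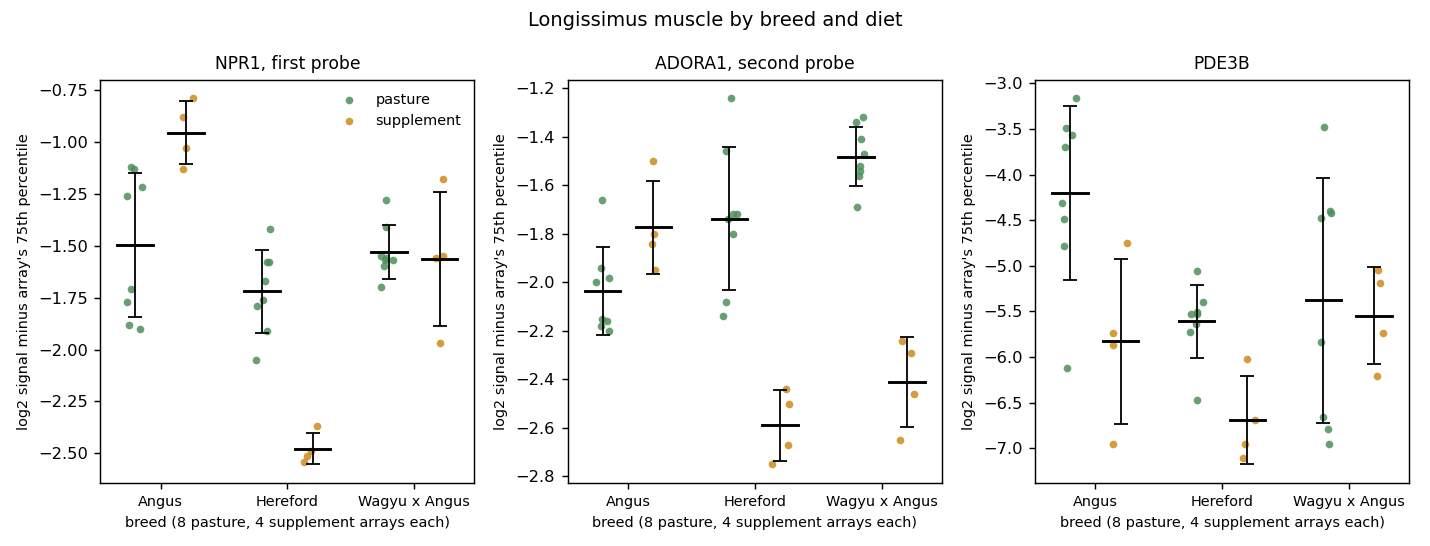
Levels of 1 probe each of NPR1, ADORA1 and PDE3B in the 36 LD arrays (vertical axes, log2 signal minus the 75th percentile of the array, a separate axis a probe) by breed and diet; points are arrays, bars mean and SD of 8 pasture or 4 supplement arrays. The 4 Hereford supplement arrays lie below all 8 Hereford pasture arrays for NPR1 on A_73_103308 and for ADORA1 on A_73_P226312, while in Angus the supplement means are higher for both probes.

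Among the other pathway genes in LD, the lipid droplet protein PLIN1 was 2.99-fold lower with supplement (adjusted p = 0.00914). GRK3, a kinase that desensitises receptors, was higher by 0.58, the adenylyl cyclase ADCY4 by 0.49, PDE2A by 0.53 and GNAI2 by 0.41 on the log2 scale. In the same comparison 3 of 8 adipocyte markers, a list that holds PLIN1, were lower and 0 higher (median -1.11), 6 of 8 endothelial markers were higher (median 0.45) and 4 of 10 skeletal muscle markers were higher (median 0.19), and their part was not tested. With slide as a random block 1 of 34227 probes was called for diet.

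Over 60 fat arrays 0 of 9 member probes were called for breed by limma, 2 at an unadjusted p under 0.05, where 3.2% of all probes were called and 16.6% had an unadjusted p under 0.05. For the dependence of depot on breed 0 of 9 were called, and 0% of all probes, with 2 member probes and 7.38% of all probes at an unadjusted p under 0.05. ADRB3 was lower in Wagyu x Angus than in Hereford by 0.73 on the log2 scale (adjusted p = 0.213). Of the other pathway genes MAOB, which degrades amines, was 3.11-fold higher in Wagyu x Angus than in Hereford (adjusted p = 0.000661), a comparison with 3.44% of all probes called.

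In the 24 pasture LD arrays breed was called for 2 of 9 member probes, both of ADORA1, where 14.7% of all probes were called. With slide as a random block 0 of 34227 probes were called in this comparison of the 3 breeds. Breed and scan day are partly mixed in these arrays, and with scan day as a block 1 member probe was called. On the first ADORA1 probe the level was -3.08 ± 0.63 in Hereford, -2.23 ± 0.25 in Angus and -2.34 ± 0.51 in Wagyu x Angus (SD, n = 8; adjusted p = 0.0301). Between pairs of breeds 1 member probe was called each time, where 8.78% (Hereford and Angus), 1.72% (Wagyu x Angus and Angus) and 10.8% (Wagyu x Angus and Hereford) of all probes were called. On A_73_P226312 Wagyu x Angus was the highest, above Angus by 0.55 (adjusted p = 0.023), so the probes gave different orders. PDE3B passed background on 7 of 8 Angus pasture arrays and on 0 of 12 Hereford arrays of LD, and was at least 2.41-fold higher in Angus than in Hereford, although the comparison of the 3 breeds was not called (adjusted p = 0.0669). The summed adipocyte markers of pasture LD had medians of 5.33 in Angus, 3.79 in Wagyu x Angus and 2.05 in Hereford, and PLIN1 was 7.39-fold lower in Hereford than in Angus (adjusted p = 0.00402). MAOB, the prostaglandin receptor PTGER3 and the inhibitory subunit GNAI1 were also lower in Hereford than in Angus, by 2.07, 1.27 and 1.16 on the log2 scale, and ADCY7 was higher by 0.87, while PRKAR2B was lower by 0.94 in Wagyu x Angus than in Hereford. The part of fat content in these values was not tested.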

How the data were processed

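The authors deposited the scanner's intensity values of each array, of which the background-subtracted processed signal, unscaled between arrays, was used. They also deposited a log2 table, median signal minus median local background, which was reproduced from the scanner values within 0.0001 in all 3285792 values. Control spots and 8846 outlier values were left out, and each array was scaled to its 75th percentile. Differences were tested with limma 3.58.1 in R 4.3.3 (packages data.table, version 1.17.8, and jsonlite, version 2.0.0) on the arrays compared, with breed in the fits of 5 depots and of diet, and figures were drawn with matplotlib. On simulated data 82% of 200 changed probes were recovered for 12 Kid against 12 SC arrays, with 8 false calls, and 46% for breed by diet in LD, with 4 false calls. A probe well above background on most arrays stood for a gene. Members and gene lists were chosen with earlier results of these data known. Other pathway genes are named where called without overlap (depots, at most 12) or called (diet and breed, at most 6). Alternatives were quantile normalization, normexp (offset 50), the authors' table, other probe filters, an equal-variance test, breed, scan day, slide or replicate number in the fit, single breeds, and arrays left out; those without arrays standing apart were added after seeing the data. Array number limits precision. Results of some other pathway genes, and lists resting on them, are not reported here. No sequences or coordinates are given.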

Additional observations from a re-analysis of the deposited data

Results flagged for a closer look

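In 6 of 168 groups of arrays tested, 1 array lay far from the others of its tissue, breed and diet; chance alone gives about 1 in 20 groups. ADRB1 was at -3.03 on 1 Angus IMF array (others -2.43 to -2.35) and at -2.80 on 1 Wagyu x Angus Kid array (others -3.23 to -3.16). ADRB3 was at -3.61 on 1 Wagyu x Angus pasture LD array (others -4.67 to -4.26) and at -3.09 on 1 Hereford SC array (others -3.94 to -3.84). ADRA2A was at -1.35 on 1 Wagyu x Angus Inter array (others -2.38 to -2.32) and at -0.28 on 1 Wagyu x Angus supplement LD array (others -1.03 to -0.97).

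The diet difference in LD differed between breeds for NPR1 on A_73_103308 (limma, adjusted p = 0.000396) and for ADORA1 on A_73_P226312 (limma, adjusted p = 7.19e-05), both by the breed by diet term. The other probe of either gene in the authors' table was not called for that term.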

How the results depend on the processing

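In the authors' table as deposited, which has no scaling between arrays, ADRB1 differed from SC by 0.41 in Inter, 0.30 in Kid, 0.43 in Omen and 0.51 in IMF, ADRA2A by 0.23, 0.52, 0.32 and 0.43, ADORA1 by 0.69 (Inter) and 0.86 (Kid) on A_73_P226312 and by 0.78 (Omen) on A_73_110656, and NPR1 by 0.50 (Kid) on A_73_P092366, all opposite in sign to the scaled values except A_73_P226312 in Kid, whose scaled difference was 0.00. Scan day over 96 arrays turned PDE3B in Omen to -0.89. The other probe gave -0.98 for NPR1 and 0.00 for ADORA1 in IMF, and within Angus the diet difference of ADORA1 on A_73_P226312 was 0.26. The causes were not tested.

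Counts of member probes called moved as follows. IMF against SC gave 2 with scan day, 2 within Wagyu x Angus and 7 within Hereford (5 as reported). Inter gave 8 in the authors' table and 2 within Angus and within Hereford (4). Kid gave 8 in that table, 2 with scan day over 96 arrays, 1 within Angus, 1 within Hereford and 2 within Wagyu x Angus (4). Omen gave 8 in that table, 1 with scan day and 1 within Hereford (4). The other pairs of tissues gave 55 in all. The 5 of them in which scan day was fitted as a block, all between fat depots, gave 8 with it and 16 without. That fit was not made for the pairs with LD. Diet (2) gave 0 with normexp and with slide, and 1 in the authors' table, with all probes, with the filter on dim probes, with scan day, within Angus and within Wagyu x Angus, and 3 within Hereford. Breeds in LD (2) gave 1 with normexp, in the authors' table and with scan day, and 0 with slide. With slide as a random block 1 of 34227 probes was called for diet and 0 for breeds in LD.

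Leaving out each array in turn gave 7 to 8 calls over the depots, 1 to 2 for diet and 0 for breeds in fat. Against SC only the arrays that stood apart, chosen after seeing the data, were left out, which gave 5 in IMF, 4 in Inter, 4 to 5 in Kid and 4 in Omen. The replicate block (the replicate number equals the position on the slide and is not known to pair animals) left every count as it was: 7 over the depots, 5 in IMF, 4 each in Inter, Kid and Omen, 55 for other pairs, 2 for diet, 2 for breed by diet, 0 for breeds in fat and 2 in LD.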
